A study of Mus musculus with 6 samples.

Results

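Regulators of G protein signalling (RGS proteins) were described across the cells of sorted mouse amygdala. The genes were Rgs3, Rgs4, Rgs5, Rgs6, Rgs7, Rgs7bp, Rgs10, Rgs12, Rgs16 and Rgs20, which are 10 of the 32285 genes counted and were taken by name. Cells came from the amygdala of young adult male wildtype C57BL/6N mice and were sorted with the astrocyte antibody ACSA-2, beside antibodies to CD11b, CD45 and O1, in 3 pooled libraries of 5287, 3631 and 4628 barcodes. The hashtag table listed 16 mice, 4 in each group. Non-shocked mice (NoFC) were placed in the chamber after habituation, FC mice received foot shocks there, NoFR mice were conditioned and stayed in the home cage on the next day, and FR mice were conditioned and returned to the chamber on the next day. All mice were habituated, and all tissue was dissociated with inhibitors of transcription and translation after perfusion. The labels give perfusion at 90 min from the start of behaviour, but the NoFR mice had no chamber session on the day of collection. The NoFR and FR mice were collected a day later in the paradigm than the NoFC and FC mice. The day and the conditioning history therefore cannot be told apart between these pairs of groups. In the pairs of NoFR mice with NoFC or FC mice, the missing chamber session cannot be told apart from these either.

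A G protein-coupled receptor loads its G protein alpha subunit with GTP, and the alpha subunit switches itself off by hydrolysing that GTP. RGS proteins bind the active alpha subunit and speed up the hydrolysis, so that they shorten the signal. The R4 subfamily (Rgs3, Rgs4, Rgs5, Rgs16) consists mostly of small proteins that act on Gi and Gq alpha subunits, the R7 subfamily (Rgs6, Rgs7) works as a complex with the G beta subunit Gnb5 and is held at the membrane by partners such as Rgs7bp, Rgs20 belongs to the RZ subfamily and Rgs10 and Rgs12 to the R12 subfamily. Rgs5 is widely used as a marker of brain pericytes, the contractile mural cells that wrap capillaries.

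Cells were taken by marker UMIs (unique molecular identifiers, each standing for 1 captured transcript). The 8758 astrocytes had at least 20 Slc1a2 and Slc1a3 UMIs together and at most 2 Vtn UMIs, the 2215 pericytes had at least 8 Vtn UMIs and at most 5 of Slc1a2 and Slc1a3, and 22 Acta2 cells had at least 5 Acta2 UMIs. The labels give every cell as an astrocyte, and the pericytes and Acta2 cells came through the same sort. Astrocyte and pericyte markers that the rules did not use differed between the classes, other than Atp1b2, but not all to the same degree. Aqp4 was counted in 88.8% of astrocytes and 2.44% of pericytes, Kcnj8 in 0.525% and 93.4%, and Abcc9 in 0.719% and 97.3%. The pericyte markers Pdgfrb, Atp13a5 and Notch3 were counted in 47.4%, 36.9% and 28.6% of astrocytes, beside 99.0%, 99.4% and 94.8% of pericytes. Atp1b2, listed as an astrocyte marker, was counted in 90.3% of astrocytes and 92.2% of pericytes. Myh11, a smooth muscle myosin, had UMIs in 100% of the Acta2 cells and 24.7% of pericytes, whereas Cnn1, another smooth muscle gene, had 0 UMIs in the Acta2 cells. The Acta2 cells were few, 10, 5 and 7 in the 3 libraries. Of these, 14 also met the pericyte rule and were counted as Acta2 cells, and 1 held 20 or more Slc1a2 and Slc1a3 UMIs and so carried astrocyte RNA. The libraries had 42350059, 31700569 and 33368825 gene UMIs, the median astrocyte had 9889.5 UMIs and the median pericyte 5010, and 18 barcodes occurred in more than 1 library.

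Of the 10 genes, 5 lie on chromosome 1. In GENCODE vM21 on GRCm38, Rgs5 (ENSMUSG00000026678) lies on the forward strand at chr1:169655501-169695813 and Rgs4 (ENSMUSG00000038530) on the reverse strand at chr1:169741477-169747642. The 2 genes face each other with their 3′ ends 45663 bases apart and 0 annotated genes between them. Rgs7 (chr1:175059087-175492500, reverse strand), Rgs16 (chr1:153740349-153745468, forward) and Rgs20 (chr1:4909576-5070285, reverse) are on the same chromosome. The others lie on chromosomes 12 (Rgs6), 13 (Rgs7bp), 4 (Rgs3), 5 (Rgs12) and 7 (Rgs10). Annotated genes overlap Rgs20 (2 on its strand), Rgs6 (1), Rgs7 (1), Rgs10 (1) and Rgs12 (1), so that a share of their UMIs may be assigned uncertainly. Rgs5, Rgs4 and Rgs7bp overlap no annotated gene on either strand.

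The 250 bases before the RefSeq start (GRCm38.p6) are shown for Rgs4 and Rgs5, the neighbours that were abundant in pericytes, and for Rgs7, a gene of the same chromosome that was abundant in astrocytes. Each sequence is written in the direction of its gene, and capitals mark the only match to the motifs searched other than CANNTG.
Rgs4, chr1:169747643-169747892, reverse strand: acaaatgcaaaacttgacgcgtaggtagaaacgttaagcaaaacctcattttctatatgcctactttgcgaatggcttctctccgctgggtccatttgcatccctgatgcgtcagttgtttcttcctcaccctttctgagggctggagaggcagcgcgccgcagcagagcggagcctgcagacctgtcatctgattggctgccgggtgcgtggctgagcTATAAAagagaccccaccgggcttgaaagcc
Rgs5, chr1:169655251-169655500, forward strand: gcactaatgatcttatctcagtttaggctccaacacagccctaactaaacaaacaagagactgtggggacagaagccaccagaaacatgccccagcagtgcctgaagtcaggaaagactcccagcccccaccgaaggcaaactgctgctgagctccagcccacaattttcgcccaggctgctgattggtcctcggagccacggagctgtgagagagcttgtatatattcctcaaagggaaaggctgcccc
Rgs7, chr1:175492546-175492795, reverse strand: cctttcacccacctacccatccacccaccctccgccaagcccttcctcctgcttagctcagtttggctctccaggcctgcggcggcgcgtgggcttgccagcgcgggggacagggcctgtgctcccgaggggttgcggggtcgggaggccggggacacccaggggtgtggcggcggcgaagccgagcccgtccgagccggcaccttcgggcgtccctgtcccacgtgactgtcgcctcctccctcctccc

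The motifs searched on both strands were the TATA box TATAAA, the Sp1 box GGGCGG, the cyclic AMP response element TGACGTCA, the core TGGGAA of sites of the Notch effector Rbpj, the E box CANNTG and the CArG box of serum response factor. A CArG box can contain TATAAA, and none of the other motifs contains another. The Rgs4 window held TATAAA, as did 12.4% of all 32851 windows of this length, and CANNTG, as did 66.2%. The Rgs7 window held CANNTG alone of these motifs and the Rgs5 window none of them. The GGGCGG motif, in 32.7% of all windows, was in those of Rgs10, Rgs12, Rgs16 and in 1 of the 2 of Rgs3. Both Rgs3 windows held TATAAA and 1 of them TGGGAA, which 21.6% of all windows held. No member's window held TGACGTCA or the CArG box, each rare among all windows (1.55% and 1.47%). GC content was 53.6% in the Rgs4 and Rgs5 windows and 72.4% in the Rgs7 window, beside a median of 52.4% over all windows. The table held windows for 9 of the 10 genes, and Rgs20 had no entry in it.

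The first comparison asked which RGS genes separate pericytes from astrocytes. UMIs were summed per class and library, and levels are given as TMM-normalized CPM, the share of a sum's UMIs that a gene holds after edgeR's TMM scaling of the totals. A gene was called where the adjusted p of edgeR's quasi-likelihood test was under 0.05. Rgs5, Rgs4 and Rgs10 were pericyte genes in these cells, Rgs20 and Rgs7 were astrocyte genes, and Rgs6 and Rgs7bp had similar levels in both. Rgs12 was higher in astrocytes but was also counted in pericytes. All 10 genes were called, 5 higher and 5 lower in pericytes, but among all 13063 genes tested 81.2% were called, 38.5% higher and 42.7% lower, so that the call itself sets no RGS gene apart and the sizes carry the description. With RLE in place of TMM scaling, 3842 genes were higher and 7000 lower in pericytes, where TMM gave 5027 and 5576, and the median log2 fold change of all genes moved from −0.06 to −0.33.

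Rgs5 stood at 5396, 5594 and 5553 CPM in the pericytes of libraries 1, 2 and 3 and at 3.25, 2.58 and 5.04 CPM in astrocytes. Its log2 fold change was 10.59 (SE 0.72). Rgs4, an R4 member that limits Gq and Gi signals, stood at 1454, 1550 and 1436 CPM in pericytes and at 0.579, 0.874 and 1.17 CPM in astrocytes, with a log2 fold change of 10.74 (SE 0.21). Every pericyte sum lay far above every astrocyte sum for both genes. Rgs10, better known from microglia, stood at 73.0, 71.8 and 83.2 CPM in pericytes and rested on 6, 3 and 5 UMIs in astrocytes, with a log2 fold change of 8.63 (SE 0.19). Without TMM scaling the 4 microglial markers used here stood at 9.27 CPM (P2ry12), 1.84 CPM (Cx3cr1), 0.262 CPM (Csf1r) and 0 CPM (C1qa) in pericytes, beside 77.5 CPM for Rgs10, and their part in its level was not tested.

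Pericyte genes had low levels in astrocytes. Without TMM scaling, the level in astrocytes was 0.0547% of that in pericytes for Rgs5 and 0.0479% for Rgs4. Of the 8 pericyte markers that the rule did not use, 4 had shares of this size, 0.0406% for Abcc9, 0.0481% for Kcnj8, 0.0513% for Higd1b and 0.0568% for Anpep. The other 4 had larger shares, 0.372% for Cspg4, 1.46% for Atp13a5, 3.88% for Notch3 and 4.11% for Pdgfrb. Rgs5 and Rgs4 lay within the range of the first 4, and no expression in astrocytes is read from their UMIs there.

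Rgs20, whose product acts on Gz and Gi alpha subunits, stood at 1266, 1293 and 1358 CPM in astrocytes and at 4.11, 4.80 and 6.67 CPM in pericytes. The log2 fold change of pericytes against astrocytes was −7.99 (SE 0.20). Rgs7 stood at 956, 865 and 903 CPM in astrocytes and at 7.76, 1.70 and 5.07 CPM in pericytes, a log2 fold change of −7.51 (SE 0.19). Again the classes did not overlap in any library. Without TMM scaling the level in pericytes was 0.472% of that in astrocytes for Rgs20 and 0.662% for Rgs7, beside 0.810% for Slc4a4, 0.893% for Aqp4, 0.911% for Gja1 and 1.24% for Aldoc. Of the other astrocyte markers that the rule did not use, Gfap had 0 UMIs in pericytes, and Atp1b2, whose product is the antigen of the sort, had 83.4% of its astrocyte level. No expression in pericytes is read from the Rgs20 and Rgs7 UMIs there.

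Rgs12, a large multidomain member, stood at 70.0, 72.9 and 73.7 CPM in astrocytes and at 13.7, 15.3 and 11.2 CPM in pericytes, a log2 fold change of −2.43 (SE 0.11). Its unscaled level in pericytes was 22.2% of that in astrocytes and so above the shares of the astrocyte markers named above other than Atp1b2. Rgs16 was sparse, with 231 UMIs in all astrocytes and 87 in all pericytes. It stood at 3.28, 3.02 and 2.50 CPM in astrocytes and 6.39, 8.20 and 8.0 CPM in pericytes, a log2 fold change of 1.34 (SE 0.26). Rgs3 stood at 56.0, 58.4 and 57.6 CPM in astrocytes and 89.2, 87.9 and 78.4 CPM in pericytes, a log2 fold change of 0.57 (SE 0.074).

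Rgs6, an R7 member, had similar levels in both classes, at 508, 443 and 515 CPM in astrocytes and 401, 405 and 442 CPM in pericytes. The classes did not overlap but lay close, and the log2 fold change was −0.23 (SE 0.11, edgeR adjusted p = 0.041). Rgs7bp, the membrane anchor of R7 complexes, stood at 119, 116 and 113 CPM in astrocytes and 99.5, 99.2 and 114 CPM in pericytes, where library 3 reached the lowest astrocyte level. Its log2 fold change was −0.15 (SE 0.068, edgeR adjusted p = 0.032). These 2 small differences depended on the scaling and turned to 0.02 for Rgs6 and 0.10 for Rgs7bp with library sizes without TMM, with edgeR adjusted p of 0.84 and 0.16. They also lost the call without library 1 (adjusted p = 0.19 for Rgs6 and 0.31 for Rgs7bp), without library 2 (0.069 and 0.24), with no filter on low counts (0.065 and 0.056) and with the overlap cells kept in pericytes (0.071 and 0.23), and Rgs7bp lost it with astrocyte and pericyte sums only (0.11). In the other direction they reached −0.51 for Rgs6 and −0.43 for Rgs7bp, and 8 and 7 of 13 alternatives kept the call.

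**Figure D1:**
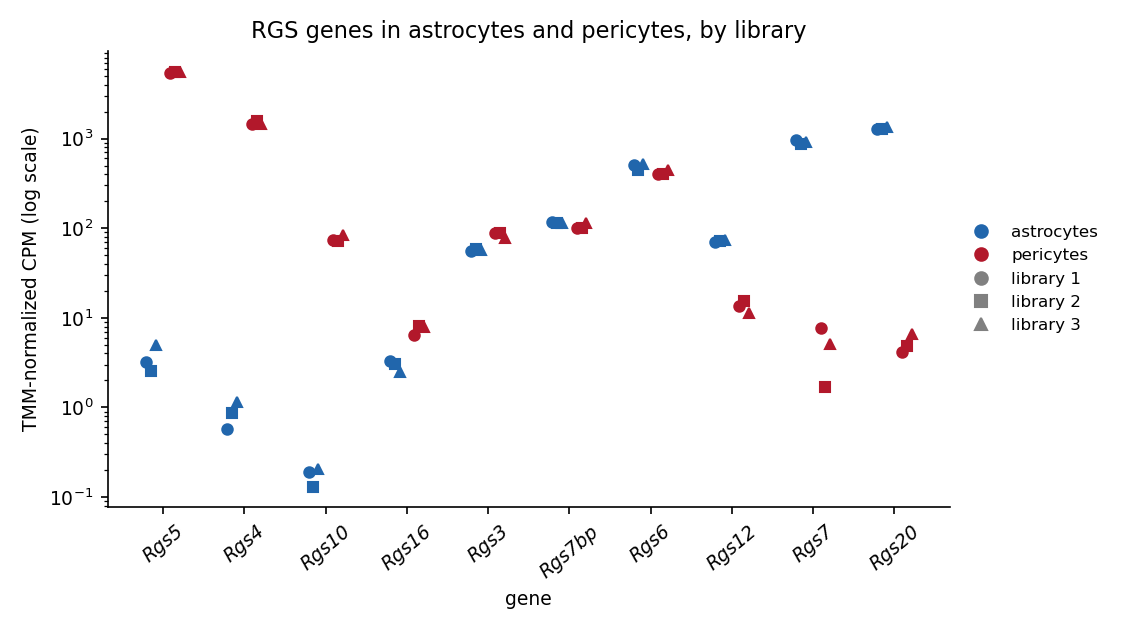
TMM-normalized CPM (log scale) of the 10 RGS genes in the summed astrocytes (blue) and pericytes (red) of each of 3 libraries (marker shape). The pericyte points lie above the astrocyte points for Rgs5, Rgs4 and Rgs10 and below them for Rgs20, Rgs7 and Rgs12, and those of Rgs6 and Rgs7bp lie at nearly the same height.

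Single cells gave the same division. At least 1 Rgs20 UMI was counted in 96.1% of astrocytes (95% Wilson interval 95.6 to 96.4%) and 2.39% of pericytes (1.83 to 3.12%), and an Rgs7 UMI in 88.2% and 2.57%. An Rgs5 UMI was counted in 99.1% of pericytes (98.7 to 99.5%) and 2.83% of astrocytes, and an Rgs4 UMI in 95.9% and 0.742%. Rgs10 was found in 30.1% of pericytes (28.2 to 32.0%) and 14 of 8758 astrocytes, a share of 0.160%. These intervals cover counting error only.

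For Rgs3, Rgs6 and Rgs7bp the share depended on depth. Rgs3 had a UMI in 35.9% of astrocytes and 31.4% of pericytes, but in 9.13% and 15.8% when each cell was thinned to 2000 UMIs. Rgs6 went from 72.1% and 68.4% to 43.9% and 47.3%, and Rgs7bp from 45.3% and 31.0% to 15.8% and 16.7%. The order of the 2 classes turned for these 3 genes after thinning, and no order is read from the shares. For Rgs3 the order after thinning was that of the summed levels, which were higher in pericytes. Rgs12 kept the higher share in astrocytes, 41.9% against 6.05% and 11.6% against 2.44% after thinning.

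**Figure D2:**
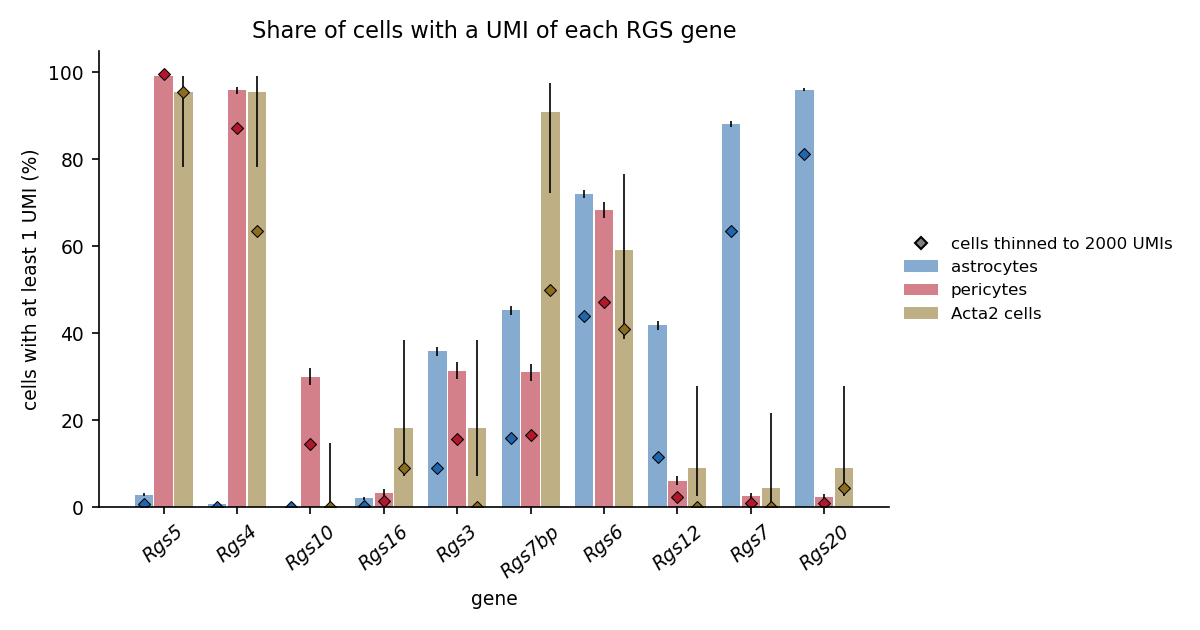
Percent of astrocytes, pericytes and Acta2 cells with at least 1 UMI of each RGS gene; bars are all cells with 95% Wilson intervals, and diamonds are cells thinned to 2000 UMIs. The diamonds lie far below the bars for Rgs3, Rgs6, Rgs7bp and Rgs12 in astrocytes and close to them for Rgs5 in pericytes.

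Within a class the cells varied. The median pericyte had 52.8 Rgs5 UMIs per 10000 gene UMIs, with 25.4 at the lower and 88.3 at the upper decile of cells. For Rgs4 the median was 13.4 and the same range 3.43 to 28.5. The median astrocyte had 9.44 Rgs20 UMIs per 10000, with a range of 3.17 to 19.4. Across pericytes thinned to a common depth, Pearson's r between Rgs4 and Rgs5 was 0.082 over 844 cells of library 1, 0.10 over 638 of library 2 and 0.063 over 689 of library 3. Between Rgs7 and Rgs20 in astrocytes it was 0.17, 0.15 and 0.25 over 3446, 2429 and 2601 cells. The cells of a library share their preparation, and correlations of this size in sparse counts are given only as a description.

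The genes whose log2 CPM followed a member most closely over the 9 sums of 3 classes and 3 libraries, among 4150 genes with a mean of at least 50 CPM, were Rcsd1, Ptp4a3 and Rbpms for Rgs5 (Pearson's r of 0.999 each). For Rgs4 they were Pla2r1 (r = 1.000), Adap2os (0.999) and Ggt5 (0.999), and for Rgs20 Wdr17 (0.999), Nwd1 (0.998) and Nebl (0.997). The sums share libraries, and the differences between classes set most of each r.

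The next comparison set the Acta2 cells against pericytes. Acta2 is the actin of contractile smooth muscle. Rgs5 stood at 3641, 5222 and 4550 CPM in the Acta2 cells of the 3 libraries, below the pericytes in each, but did not pass the test (log2 fold change −0.32, SE 0.49, edgeR adjusted p = 0.79). The order in library 2 depended on the scaling, since without TMM its Acta2 cells held 7267 CPM and its pericytes 5687. With the 14 cells that met both rules counted as pericytes, 8 Acta2 cells were left, all of which failed the pericyte rule. Rgs5 was lower in these 8 cells (log2 fold change −1.97, edgeR adjusted p = 0.042). They were left by failing a rule on pericyte and astrocyte markers, and 1 of them carried astrocyte RNA. No order of Rgs5 is therefore read from this fit. Rgs4 stood at 500, 675 and 563 CPM, under every pericyte sum, and was lower with a log2 fold change of −1.39 (SE 0.22, edgeR adjusted p = 7.5e-09). Rgs7bp stood at 367, 598 and 379 CPM, above every pericyte sum, and was higher with a log2 fold change of 1.99 (SE 0.23, edgeR adjusted p = 3.7e-16). It had a UMI in 20 of the 22 cells (90.9%), beside 31.0% of pericytes. The median Acta2 cell had 6706.5 UMIs, and after thinning to 2000 UMIs the shares were 50.0% and 16.7%.

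Rgs10 had 0 UMIs in the 22 Acta2 cells, which allows a share of cells with a UMI of up to 13.6%. Against a floor of 3 counts over the group, its unscaled level was at least 5.25-fold lower than in pericytes. Rgs3 (6 UMIs in the Acta2 cells) and Rgs6 (46 UMIs) were lower, with log2 fold changes of −1.63 (SE 0.55) and −0.99 (SE 0.29). The call for Rgs3 was lost in 8 of 12 alternatives, with edgeR adjusted p of 0.12 and 0.21 without library 2 and 3, 0.078 with RLE scaling, 0.063 without TMM, 0.055 with no filter on low counts, 0.056 with the stricter gate and 0.37 with the overlap cells kept in pericytes, and a DESeq2 adjusted p of 0.0998. That for Rgs6 was lost without library 3 (0.28) and with RLE scaling (0.053). Rgs12 (2 UMIs) and Rgs16 (4 UMIs) did not pass. Rgs20 and Rgs7 were called higher, but 22 of the 23 Rgs20 UMIs and 8 of the 8 Rgs7 UMIs lay in 1 cell of library 1, the one that carried astrocyte RNA. With the Acta2 cells held to at most 5 Slc1a2 and Slc1a3 UMIs, or without library 1, neither was called, and Rgs7 also lost its call without library 2 (edgeR adjusted p = 0.11), with no filter (0.085), with no library term (0.088) and with DESeq2 (0.23). Of all genes tested, 10.1% were called in this comparison, 5.25% higher and 4.86% lower, beside 7 of the 10 RGS genes, 3 higher and 4 lower.

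The G protein pathway was then read from 10 lists of 80 genes, of which 50 were abundant enough to test. Of these 24 were higher in pericytes, 23 higher in astrocytes and 3 not called. That is 94.0% called, beside 81.2% of all genes, whose median log2 fold change was −0.06. The lists were read with TMM scaling alone. Small fold changes in them, such as those of Gnb5 and Gnb1, may depend on it, as those of Rgs6 and Rgs7bp did. Among the other RGS genes, 4 of 12 were tested. Rgs19 was higher in pericytes (log2 fold change 3.33, SE 0.17), and 3 were higher in astrocytes, among them Rgs17 (−4.18, SE 0.34) and Rgs22 (−3.95, SE 0.59). Of the partners of the R7 subfamily, Gnb5, its obligate beta subunit, was higher in pericytes by a log2 fold change of 0.26 (SE 0.11). The orphan receptors that bind R7 complexes, Gpr158 (−4.97, SE 0.34) and Gpr179 (−3.15, SE 0.37), were higher in astrocytes.

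Among the alpha subunits that RGS proteins act on, 3 of 5 tested genes of the Gi/o/z group were higher in pericytes. Gnai1 (log2 fold change 1.94, SE 0.16) and Gnai2 (0.91, SE 0.060) were among them, whereas Gnao1 was higher in astrocytes, at 875 against 61.2 CPM (−3.84, SE 0.13). The Gq/11 group was divided. Gna11 was higher in pericytes (126 against 40.1 CPM, log2 fold change 1.65, SE 0.071) and Gnaq in astrocytes (355 against 128 CPM, −1.47, SE 0.067). Gnas, the Gs alpha subunit, was higher in pericytes (1.11, SE 0.12), and Gna13 (−1.66, SE 0.073) and Gna12 (−0.32, SE 0.074) in astrocytes. All 3 tested G beta genes were higher in pericytes, with Gnb4 at 262 against 4.80 CPM (log2 fold change 5.77, SE 0.084), followed by Gnb2 (0.78, SE 0.062) and Gnb1 (0.23, SE 0.061). The small difference of Gnb1 was not tested with other scalings. Of 6 tested G gamma genes 3 were higher in pericytes, among them Gng2 (6.37, SE 0.086) and Gng11 (5.73, SE 0.13), and 2 in astrocytes, among them Gng12 (−1.60, SE 0.069).

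Of the receptors, 4 of 7 tested vascular Gq-coupled genes were higher in pericytes and 3 in astrocytes. The 3 with the largest fold changes, named here, were all higher in pericytes. The thromboxane receptor gene Tbxa2r stood at 260 against 0.335 CPM (log2 fold change 9.56, SE 0.12), S1pr3, a sphingosine 1-phosphate receptor, at 661 against 2.82 CPM (7.88, SE 0.093) and the thrombin receptor gene F2r at 99.3 against 2.80 CPM (5.13, SE 0.11). The median of this list was 4.64. Of 10 tested Gi-coupled receptors 5 were higher in astrocytes and 4 in pericytes, with a median of −0.26. S1pr1 stood at 1355 CPM in astrocytes and 9.06 in pericytes (−7.23, SE 0.19) and the GABA-B receptor gene Gabbr2 at 429 and 3.14 (−7.11, SE 0.13), whereas Lpar1 was higher in pericytes (5.39, SE 0.20). The kinases and arrestins that end receptor signalling were divided 3 to 3 among 7 tested, with Grk5 higher in pericytes (4.15, SE 0.075) and Arrb1 (−2.90, SE 0.097) and Grk3 (−1.36, SE 0.066) in astrocytes.

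**Figure D3:**
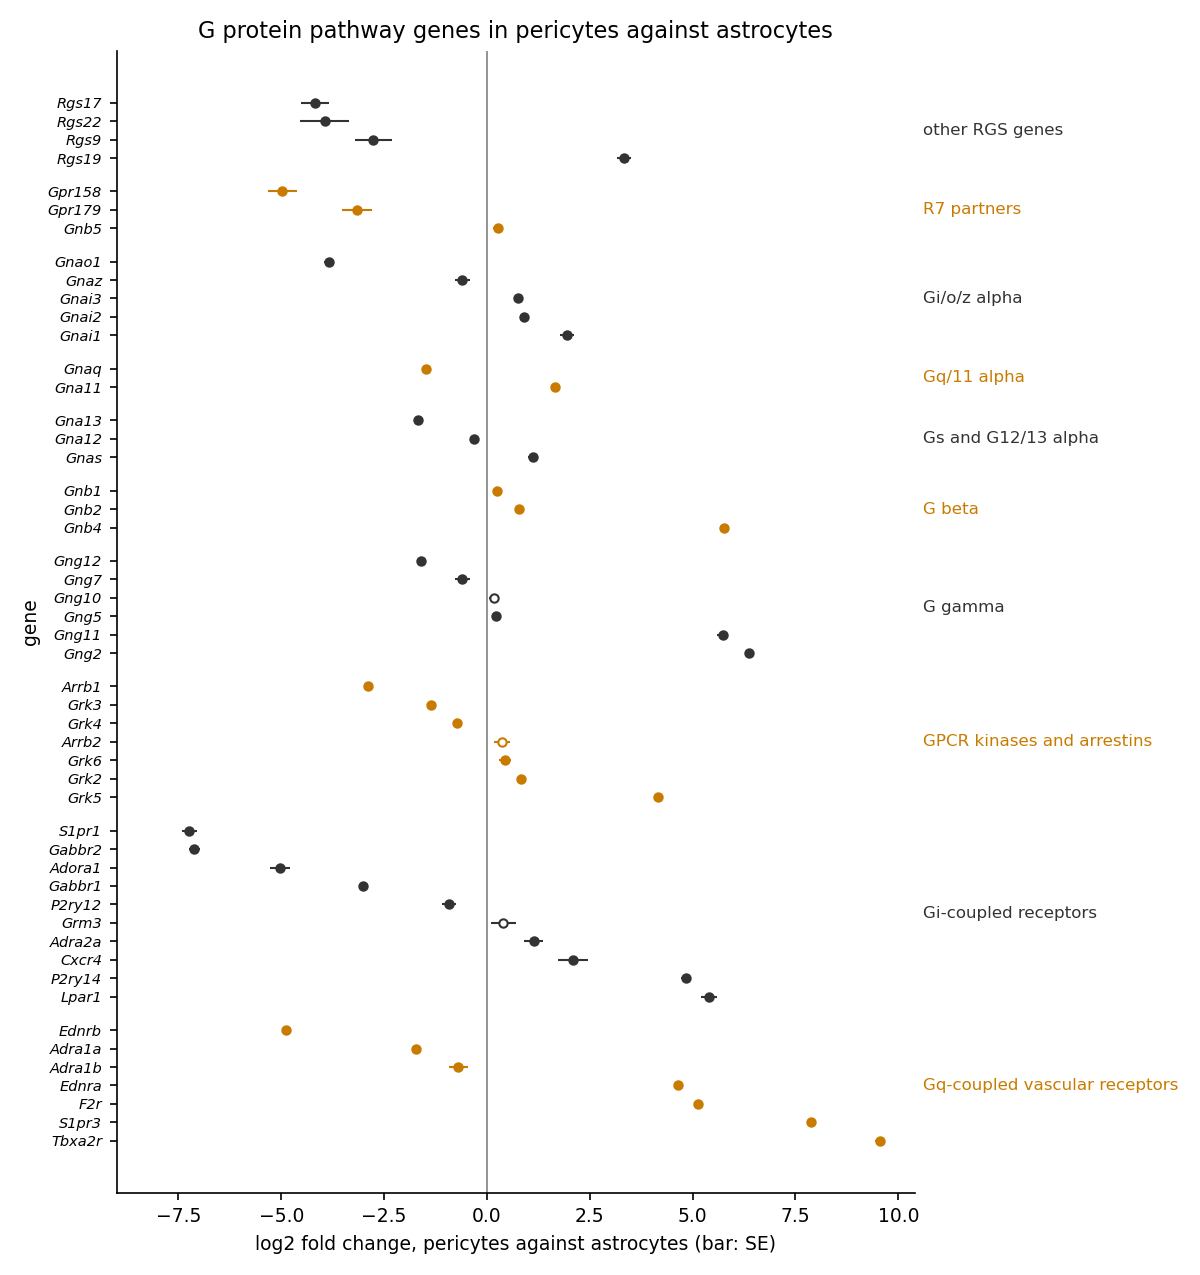
Log2 fold change of pericytes against astrocytes (points, with SE as bars) for the 50 tested genes of 10 G protein pathway lists; filled points passed an adjusted p of 0.05. Tbxa2r and S1pr3 lie farthest to the right, and S1pr1 and Gabbr2 farthest to the left.

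The last comparison asked whether the genes differed between the 4 groups of mice. Pericytes were assigned to a mouse where the strongest hashtag had at least 10 UMIs and at least 3 times the next, which gave 1003 pericytes, between 36 and 107 a mouse. NoFC sums held 272303 to 616976 UMIs, FC sums 208601 to 491053, NoFR sums 187654 to 427729 and FR sums 191242 to 300403. The genes Rgs3, Rgs4, Rgs5, Rgs6, Rgs7bp and Rgs10 passed the filter on low counts, and Rgs7, Rgs12, Rgs16 and Rgs20 did not and were not tested. In edgeR's test of all 4 groups together, Rgs4 alone among them was called, with an adjusted p of 0.0014, beside 0.843% of the 6285 genes tested, among which it ranked 19 by p.

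Rgs4 stood at 1891, 1351, 1894 and 2351 CPM in the pericytes of the 4 NoFC mice. In the FC mice it stood at 1691, 2000, 2176 and 2135 CPM, in the NoFR mice at 1520, 1138, 1339 and 1534 CPM and in the FR mice at 1450, 1648, 1338 and 1372 CPM. The levels here are scaled within the mouse sums and are not to be set beside those of the class sums. The NoFC mean was 1872 ± 409 CPM (SD, n = 4 mice), the FC mean 2000 ± 220 CPM (n = 4), the NoFR mean 1382 ± 186 CPM (n = 4) and the FR mean 1452 ± 139 CPM (n = 4). The FC mice were all above the NoFR and FR mice, whereas 1 NoFC mouse, at 1351 CPM, lay among the NoFR and FR mice.

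Rgs4 was lower in NoFR than in NoFC mice by a log2 fold change of −0.45 (SE 0.11, edgeR adjusted p = 0.013), beside 1.23% of genes called, and lower in NoFR than in FC mice by −0.57 (SE 0.12, adjusted p = 0.0056), beside 0.493% called. FR against FC gave −0.48 (SE 0.11, unadjusted p = 4.4e-05), which did not pass after adjustment (edgeR adjusted p = 0.14, with 0% of genes called), and FR against NoFC gave −0.36 (SE 0.11, edgeR adjusted p = 0.34, with 0.0636% called). FC against NoFC called 0% of all genes and FR against NoFR 0.143%, and the unadjusted p of Rgs4 was over 0.05 in both. DESeq2 also called 0 genes in FC against NoFC and in FR against FC, 2 pairs in which edgeR gave 302 and 328 genes a p under 0.05 before adjustment. That is about as many of the 6285 genes tested as chance alone gives at this threshold. DESeq2 gave 153 and 179 genes such a p in the same pairs, fewer than chance alone gives, so that it was the stricter test here. In the exact permutation test over mice, 2-sided, NoFR against FC and FR against FC reached p = 0.0286, the smallest that 4 mice against 4 allow, and over the family of 36 comparisons the Benjamini-Hochberg adjusted p was 0.51. Neither this test nor the overlap of mice took account of the library. NoFR and FC mice shared library 1 alone, so that library and group are mixed in that pair. Groups of mice without overlap were found for 5.01% of all genes in NoFR against FC and for 3.28% in FR against FC.

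The call for Rgs4 leaned on single mice and on the test. Without NoFC mouse 4 (2351 CPM) the adjusted p over the 4 groups was 0.089, with DESeq2 it was 0.11, and with the 8 mice of library 1 alone it was 0.62. NoFR against NoFC lost its call without NoFC mouse 1 or 4 (edgeR adjusted p = 0.0501 and 0.55) and without NoFR mouse 2 or 3 (0.081 and 0.075), and NoFR against FC without NoFC mouse 4 (0.059) and without NoFR mouse 2 (0.054). Both pairs also lost it with DESeq2 (adjusted p = 0.11 and 0.072) and with library 1 alone (edgeR adjusted p = 0.71 and 0.26). Other mice left out brought calls, for FR against FC without FC mouse 1 (0.013) or FR mouse 2 (0.027) and for FR against NoFC without NoFC mouse 2 (0.032). The groups were spread unevenly over the libraries, since FC mice were in libraries 1 and 2 and NoFR mice in libraries 1 and 3. Within library 1 the means of 2 mice each were 1621 CPM for NoFC, 1845 for FC, 1329 for NoFR and 1549 for FR. In library 2 the NoFC mouse had 1894 CPM, the FC mice a mean of 2155 and the FR mouse 1338. In library 3 the NoFC mouse had 2351 CPM, the NoFR mice a mean of 1436 and the FR mouse 1372. In each library the NoFR and FR means were below the NoFC and FC means, although in library 1 single mice overlapped.

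Rgs5, the neighbour of Rgs4, was not called between the groups. It stood at 6596, 5805, 6090 and 6565 CPM in NoFC mice, at 6005, 5699, 5657 and 6146 in FC mice, at 5800, 5785, 6409 and 6065 in NoFR mice and at 5596, 5656, 6282 and 5820 in FR mice. All groups overlapped, and the test of 4 groups gave an edgeR adjusted p of 0.96. The spread between mice was small, with a coefficient of variation of 4.04% to 6.12% within a group, beside 9.55% to 21.9% for Rgs4.

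Markers of other cells were measured in the same pericyte sums. The genes of the cell rules (Slc1a2, Slc1a3, Vtn and Acta2) were left out of the summed lists. The summed level of the 4 microglial markers used here was 8.46 to 17.3 CPM for NoFC, 4.79 to 12.2 for FC, 7.56 to 28.1 for NoFR and 10.5 to 22.2 for FR mice, and the ranges overlapped. Over all 2215 pericytes C1qa had 0 UMIs, Csf1r had 3, Cx3cr1 had 21 and P2ry12, a purinergic receptor, had 106, which was most of the UMIs of these markers. The summed pericyte markers ranged from 11348 to 12742 CPM for NoFC, 11783 to 12776 for FC, 11745 to 12081 for NoFR and 11468 to 12607 for FR mice, and the summed smooth muscle markers from 1580 to 1793, 1372 to 1524, 1375 to 1801 and 1333 to 1668. In the smooth muscle list NoFC and FC mice did not overlap. Over all pericytes 15772 UMIs of that list were of Myl9 and 1090, the next most, of Myh11. The summed astrocyte markers were at 709 to 746 CPM for NoFC, 650 to 849 for FC, 751 to 844 for NoFR and 622 to 819 for FR mice. NoFC and NoFR mice, a pair in which Rgs4 was called, lay close but did not overlap. Many lists and pairs of groups were looked at, so that some pairs without overlap arise by chance. Over all pericytes 7760 of the UMIs of this list were of Atp1b2 and 276, the next most, of Aldoc. The endothelial list stood at 130 to 154, 100.7 to 175, 64.0 to 157 and 103 to 192 CPM and the perivascular fibroblast list at 191 to 267, 246 to 268, 208 to 298 and 220 to 250, in the same order of groups, and the neuron, oligodendrocyte, oligodendrocyte precursor and ependymal lists at 0 to 24.0 CPM. Over all pericytes 1504 UMIs of the endothelial list were of Flt1 and 11, the next most, of Pecam1. Of the fibroblast list 2391 UMIs were of Col1a2 and 407, the next most, of Dcn. The part of these levels in the Rgs4 result was not tested.

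Rgs6 had its highest levels in NoFR mice. It stood at 270, 435, 374 and 481 CPM in NoFC mice, at 420, 346, 461 and 432 in FC mice, at 599, 385, 597 and 585 in NoFR mice and at 427, 406, 443 and 391 in FR mice. Of the NoFR mice 3 were above all other mice and mouse 2 lay among them. NoFR against NoFC gave a log2 fold change of 0.49 (SE 0.14, unadjusted p = 0.00063), which did not pass (edgeR adjusted p = 0.051). It passed in 6 of 26 alternatives, with DESeq2 (adjusted p = 0.046), with no library term (0.022), with the stricter pericyte gate (0.033) and without NoFC mouse 2 (0.019), FC mouse 1 (0.039) or NoFR mouse 2 (0.013). NoFR against FC gave 0.36 (SE 0.15, edgeR adjusted p = 0.47) and FR against NoFR −0.38 (SE 0.14, edgeR adjusted p = 0.57). The test of 4 groups gave an adjusted p of 0.25.

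The remaining tested genes were not called. Rgs3 had mean levels of 97.7 ± 21.9 CPM (SD, n = 4) in NoFC mice, 100.5 ± 15.2 in FC mice, 84.9 ± 20.9 in NoFR mice and 107 ± 22.7 in FR mice. Rgs7bp had 97.2 ± 13.8, 115 ± 19.4, 112 ± 14.8 and 121 ± 19.8 CPM, and Rgs10 had 86.7 ± 22.9, 72.8 ± 14.9, 82.3 ± 18.5 and 78.1 ± 14.4 CPM, with the groups in the same order. Their edgeR adjusted p over the 4 groups lay at 0.95, 0.93 and 0.97. These genes rested on 74 to 158 UMIs a group.

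**Figure D4:**
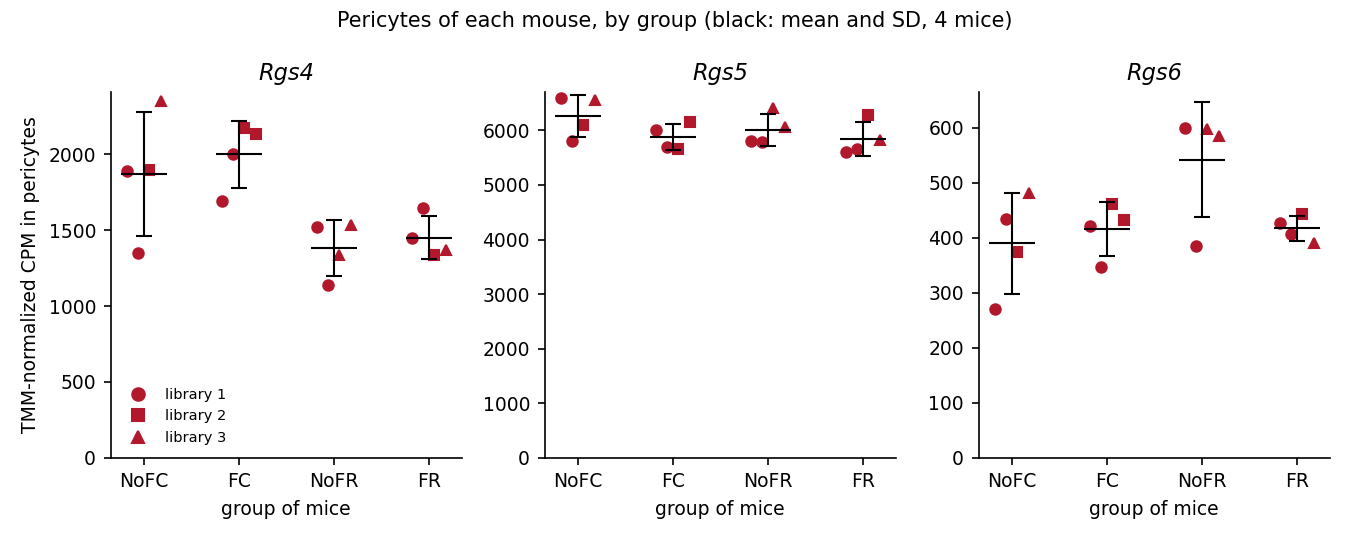
TMM-normalized CPM of Rgs4, Rgs5 and Rgs6 in the pericytes of each of 16 mice by group (marker shape is the library; black bars are the mean and SD of 4 mice; axes start at 0). Rgs4 is lower in the NoFR and FR mice except for 1 low NoFC mouse, Rgs5 is level, and Rgs6 is higher in 3 of 4 NoFR mice.

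Of the pathway genes 31 were tested between the groups of mice in pericytes, and 1 was called over the 4 groups, where 0.843% of all genes were called. This was Grk5, a kinase that phosphorylates activated receptors (edgeR adjusted p = 0.031), which is named here after its values were seen. It stood at 154, 204, 143 and 141 CPM in NoFC mice, at 232, 122, 153 and 163 in FC mice, at 292, 306, 203 and 228 in NoFR mice and at 287, 233, 169 and 182 in FR mice. The means were 160 ± 29.9 CPM (SD, n = 4), 167 ± 46.8, 257 ± 49.5 and 218 ± 53.9 in that order, with the groups overlapping.

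In astrocytes the strict hashtag rule left 336 cells, and 9 mice had at least 10 of them. The astrocytes of the first FC mouse numbered 159 and the other 8 mice had between 10 and 46. None of the 5 RGS genes tested (Rgs6, Rgs7, Rgs7bp, Rgs12, Rgs20) was called over the 4 groups (edgeR adjusted p of 1.00 for each, 0 with an unadjusted p under 0.05), beside 0.0621% of 3223 genes. Rgs20 ranged from 895 to 1833 CPM over these mice and Rgs7 from 578 to 1562 CPM, so that at this depth only large differences could have been seen.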

How the data were processed

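Deposited by the authors were raw UMI counts of genes and hashtags for each barcode of 3 pooled libraries, sorted from the amygdala. Per the labels and the study's methods, reads were processed with Cell Ranger 3.0 on mm10, while the header of the deposited count files names version 7.0.0. Every barcode was used, with no filter on cells and no doublet caller. Counts were summed per class and library (9 sums), and per mouse in pericytes (16 mice) and astrocytes (9 mice with at least 10 cells), with mice taken from the hashtag table. Genes with low counts were removed by filterByExpr, counts were scaled by TMM, and groups were compared by edgeR 4.0.16 (R 4.3.3) quasi-likelihood tests with group and library as terms and Benjamini-Hochberg adjustment over all genes tested, called at an adjusted p under 0.05. The 3 libraries pool amygdala cells of mice from unevenly spread groups. The p-values between classes measure the spread between these libraries only, and fits over 3 libraries give very small ones. Single genes were compared over mice with 2-sided exact permutation tests on log2 CPM, which did not take the library into account. The fits were tested on simulated counts in which a small part of the genes was changed by known folds, with no library effect. Between the classes most genes were called, so that the simulation does not cover the scaling there. DESeq2 1.42.0, other scalings, filters and cell gates and leaving out each library or mouse were alternatives. Those with library sizes without TMM and with astrocyte and pericyte sums only were chosen after seeing the data. The genes and lists were chosen with earlier results of these data known. All 10 RGS genes are named, and from each pathway list at most the 3 called genes with the largest log2 fold change between pericytes and astrocytes. A fold change between groups of mice is given where its unadjusted p was under 0.05. The SE of a fold change was taken back from edgeR's test, as the absolute log2 fold change over the square root of F. Likeness was ranked among genes with a mean of at least 50 CPM. Promoter sequences are from RefSeq and gene positions from GENCODE vM21. A further marker gene of the microglial list is not reported here.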

Additional observations from a re-analysis of the deposited data

Results flagged for a closer look

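In NoFR mice the pericytes of the second mouse held Rgs6 at 385 CPM, and the gap to the other 3 mice took 0.934 of the group's range, over the limit of Dixon's test at 95%. Without this mouse NoFR against NoFC gave a log2 fold change of 0.59 for Rgs6 (edgeR adjusted p = 0.013). Over the 24 groups examined, chance flags about 1 in 20.

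The strongest hashtag of 526 pericytes met the rule but belonged to no listed mouse of its library, 67, 166 and 293 of them in the 3 libraries. These cells entered no comparison of groups. Without TMM scaling they held Rgs5 at 5591, Rgs4 at 1468, Rgs6 at 404, Rgs7bp at 104 and Rgs10 at 83.7 CPM, beside 5619, 1508, 424, 106 and 77.5 over all pericytes.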

How the results depend on the processing

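Without TMM the small differences of pericytes against astrocytes turned, to a log2 fold change of 0.025 for Rgs6 and 0.10 for Rgs7bp. For the other 8 genes every alternative kept the direction and the call. Among them Rgs3 ranged from a log2 fold change of 0.29 to 0.83, with an adjusted p of up to 0.049 over the edgeR and DESeq2 fits. In Acta2 cells against pericytes, Rgs20 turned to −0.0021 and Rgs7 to −8.49 with few astrocyte UMIs allowed, where Rgs7 had 0 UMIs, Rgs7 to −8.35 with the stricter gate and Rgs16 to −0.10 with the overlap cells kept in pericytes. Without single libraries Rgs7 ranged from −7.98 to 3.50 and Rgs12 from −10.21 to 0.11, and 734 to 1045 genes were called in place of 1321.

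Against NoFC and against FC mice, Rgs4 stayed lower in NoFR mice under all 26 alternatives, with edgeR's call lost as described above. Its adjusted p over the 4 groups ranged from 4.1e-08 to 0.62 over 26 alternatives. Without the filter on low counts FR against FC and FR against NoFC passed for Rgs4 (adjusted p = 0.0013 and 0.029), as they did without the single mice named above. Genes called in pericytes moved as follows. With no filter, FC against NoFC gave 5 genes in place of 0, FR against NoFC 10 in place of 4 and FR against FC 3 in place of 0. With DESeq2, FR against NoFC gave 1 and NoFR against FC 19 in place of 31. NoFR against FC gave 54 with no library term and 48 with the looser hashtag rule. FR against NoFC gave 1 with the stricter pericyte gate and 1 with overlap cells kept. With library 1 alone the 4 groups together gave 19 in place of 53, NoFR against NoFC 27 in place of 77, NoFR against FC 12, FR against NoFC 2 and FR against NoFR 5 in place of 9. Leaving out 1 mouse, the 4 groups gave 28 to 61 genes, FC against NoFC 0 to 1, NoFR against NoFC 27 to 87, FR against NoFC 0 to 8, NoFR against FC 23 to 37, FR against FC 0 to 3 and FR against NoFR 4 to 11. In astrocytes the main count of 2 genes became 8 with no filter, 5 with DESeq2, 1 with no library term, 29 with the cell filter, 0 with the looser hashtag rule (with 179 genes at an unadjusted p under 0.05) and 1 to 81 without single mice, and in each of these fits none of the 5 RGS genes was called.

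Thinned to 2000 UMIs, the share of astrocytes with a UMI was 9.13% for Rgs3, 0.142% for Rgs4, 0.649% for Rgs5, 0.319% for Rgs16, 43.9% for Rgs6, 63.5% for Rgs7, 15.8% for Rgs7bp, 0.0472% for Rgs10, 11.6% for Rgs12 and 81.3% for Rgs20. The share of pericytes was 15.8% for Rgs3, 87.3% for Rgs4, 1.57% for Rgs16, 47.3% for Rgs6, 0.967% for Rgs7, 16.7% for Rgs7bp, 14.5% for Rgs10, 2.44% for Rgs12 and 0.967% for Rgs20. The filter on genes and mitochondrial UMIs gave 37.7% for Rgs3, 90.7% for Rgs7, 47.4% for Rgs7bp, 44.1% for Rgs12 and 98.4% for Rgs20 in astrocytes and 68.6% for Rgs6 in pericytes. The cause of these moves was not tested other than depth in the thinned cells.

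No paired analysis was possible because the gene and hashtag records with the same number are 2 readouts of 1 library, and the mouse numbers within a group mark no shared origin. The precision is limited by 22 Acta2 cells, by 36 to 107 pericytes a mouse and by low hashtag counts on astrocytes, whose strongest hashtag had a median of 4 UMIs.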
